A study of Mus musculus with 2744 samples.

Results

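The genes described here are the ligands and receptors that steer growing axons: 55 of the 23968 mouse genes in the deposited count tables, chosen by name in 4 families. The netrin family has 7 of them (Ntn1 and its receptors Dcc, Neo1 and Unc5a to Unc5d), the Slit-Robo family 6, the semaphorin-plexin family 25 (16 semaphorins, 7 plexins and the neuropilins Nrp1 and Nrp2) and the ephrin family 17 (8 ephrins and 9 Eph receptors). They were measured in single mouse cells, 1 cell per well, while embryonic stem cells were turned into motor neurons in embryoid bodies, which were taken apart with papain and sorted into plates. Libraries were made by a modified form of CEL-seq, in which polyadenylated RNA is copied with a barcoded primer for each well, pooled and amplified by transcription, so reads come from the 3′ end of a gene and CPM is not divided by gene length. The groups are cells taken at Day 6 and sorted as eGFP++ or as eGFP+, and cells with no eGFP label taken on Days 2, 3, 4, 5 and 6; the labels give neither the reporter behind the eGFP signal, the mouse line, nor the agents added on each day, but cite the published method of Wichterle and colleagues. A main experiment (2304 wells on 24 plates) and a pilot experiment (440 wells on 11 plates) each cover all of these groups except eGFP+, which is 1 plate of the main experiment. The series describes 2 biological replicates, taken here as these experiments, so n = 2 per group, and reads were summed over the kept cells of each group and experiment. Levels are gene reads scaled to the usual CPM (counts per 1e6 gene reads) of such a sum.

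Axon guidance proteins pull or push the tip of a growing axon. Netrin-1, made by the floor plate of the spinal cord, attracts axons through Dcc and repels them where Unc5 receptors are present. Slit proteins repel axons that carry Robo receptors; in the embryo motor neurons make Slit2 themselves. Secreted class 3 semaphorins act through neuropilins bound to A-type plexins, and membrane-bound semaphorins bind plexins directly. Ephrins stay on the cell surface and meet Eph receptors of a neighbouring cell, and signals run both ways; the choice of motor axons between the dorsal and ventral limb is a classic case, in which Epha4 takes part.

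The stretch before the start of 4 of these genes is shown because their levels run in opposite directions: Slit2 and Unc5a had the most reads of their families on Day 6, and Unc5b and Epha2 had more reads on Day 2 than on Day 6. Sequences are from RefSeq (GRCm38.p6), the 250 bases before the start, 5′ to 3′ on the gene's strand. Capitals mark matches to TATAAA or GGGCGG on either strand.
Slit2, chr5:47982905-47983154, plus strand: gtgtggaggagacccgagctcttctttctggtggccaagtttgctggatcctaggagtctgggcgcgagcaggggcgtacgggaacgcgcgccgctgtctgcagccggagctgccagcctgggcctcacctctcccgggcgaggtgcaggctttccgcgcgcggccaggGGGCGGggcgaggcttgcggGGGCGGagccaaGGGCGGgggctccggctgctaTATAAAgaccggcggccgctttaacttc
Unc5a, chr13:54949161-54949410, plus strand: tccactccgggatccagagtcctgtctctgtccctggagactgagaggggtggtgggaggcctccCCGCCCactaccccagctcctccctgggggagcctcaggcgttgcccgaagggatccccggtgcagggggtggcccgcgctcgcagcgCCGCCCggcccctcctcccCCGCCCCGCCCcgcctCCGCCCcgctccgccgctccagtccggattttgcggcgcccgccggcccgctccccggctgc
Unc5b, chr10:60831582-60831831, minus strand: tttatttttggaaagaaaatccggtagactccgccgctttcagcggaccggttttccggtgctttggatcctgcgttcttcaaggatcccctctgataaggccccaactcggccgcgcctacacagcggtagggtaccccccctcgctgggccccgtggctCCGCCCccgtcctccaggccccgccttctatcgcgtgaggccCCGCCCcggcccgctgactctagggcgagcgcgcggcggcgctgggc
Epha2, chr4:141300971-141301220, plus strand: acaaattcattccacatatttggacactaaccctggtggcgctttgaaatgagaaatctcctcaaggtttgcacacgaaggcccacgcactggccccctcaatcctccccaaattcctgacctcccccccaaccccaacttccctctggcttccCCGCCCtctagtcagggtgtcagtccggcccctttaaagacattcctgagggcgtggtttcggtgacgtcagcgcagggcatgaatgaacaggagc

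These windows share a GGGCGG match (the GC box that Sp factors bind), with 3 in Slit2, 5 in Unc5a, 2 in Unc5b and 1 in Epha2. A pair of neighbouring matches overlaps in Unc5a. Slit2 alone of the 4 also has a TATAAA match, which begins 28 bases before its RefSeq start. Gene coordinates given below are from another annotation, GENCODE, whose Slit2 start (47983138) lies inside this window. RefSeq windows were at hand for 46 of the 55 genes, 62 windows in all. GGGCGG was in 44 of these 62 (71%) and in 32.7% of all 32851 mouse windows of this length, whereas TATAAA was in 2 of 62 (3.23%) and in 12.4% of all. The E-box form CAGCTG, which proneural factors bind, was in 5 of the 62 windows and in 13% of all. Another E-box form, CAGATG, was in 3 of 62 and in 14.4% of all, and the homeodomain core TAATTA was in 3 of 62 and in 4.84% of all; the 4 windows shown hold none of these. The windows of guidance genes were richer in G and C, with a median of 64.4% against 52.4% over all windows. A match is a description of letters and not a sign of binding.

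Of 2744 wells, 2448 had at least 500 genes with a read and were kept. Kept cells per sum ranged from 39 (pilot eGFP++) to 422 (main Day 3), and gene reads per sum from 16370502 to 100972780. Spike-in RNA took 19% of reads in eGFP+ cells and 15.6 and 15.4% on Day 6, against 2.98 and 4.75% on Day 2 (main and pilot). A Day 4 plate of each experiment had lost 46.9% and 40% of its wells to the filter. The 6 pluripotency markers summed to 12 and 32.5 CPM on Day 6 (main and pilot), against 4447 and 3008 CPM on Day 2. The 6 motor neuron markers (Isl1, Isl2, Mnx1, Lhx3, Slc18a3, Chat) summed to 1086 and 1349 CPM in eGFP++ cells, 420.0 and 259 CPM in unselected Day 6 cells and 3.44 and 17.4 CPM on Day 2. The reads carry no molecular identifiers, so 1 molecule can stand for many reads; the median over detected genes was 13 reads per main cell and 73 per pilot cell. Intervals and limits below thus cover counting error only.

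Guidance genes took a larger part of the reads on Day 6 than on Day 2. All 55 together summed to 260.3, 321, 399.7, 706 and 1209.5 CPM on Days 2 to 6 of the main experiment. In the pilot experiment the sums were 249, 569, 509, 774 and 1593 CPM, so Day 6 was 4.65 and 6.39 times Day 2. The Slit-Robo family had the largest ratio of Day 6 to Day 2 of the 4 families in each experiment: 15.4, 19.4, 23.2, 103 and 400.3 CPM (main) and 1.67, 66.5, 82.3, 159 and 558 CPM (pilot) on Days 2 to 6. It had the fewest reads of the 4 families on Day 2 in each experiment. Semaphorins, plexins and neuropilins summed to 103, 115, 137, 228 and 407 CPM (main) and 60.5, 223, 190.2, 263 and 520.3 CPM (pilot) on Days 2 to 6. The netrin family stood at 21.4, 25.5, 62.7, 121 and 146 CPM (main) and 8.73, 39.1, 48.5, 103 and 172 CPM (pilot). Ephrins and Eph receptors, with 120.4, 161, 176, 254 and 256 CPM (main) and 178, 240.0, 188, 249 and 343 CPM (pilot), had the most reads on Day 2 and the flattest course. Within the main experiment the plates of Day 6 gave 178 to 726 CPM for the Slit-Robo family, against 8.4 to 18.6 CPM for the plates of Day 2, and the plates of these days did not overlap for any of the 4 families. In a sum, fewer cells of a type and less RNA per cell cannot be told apart.

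**Figure D1:**
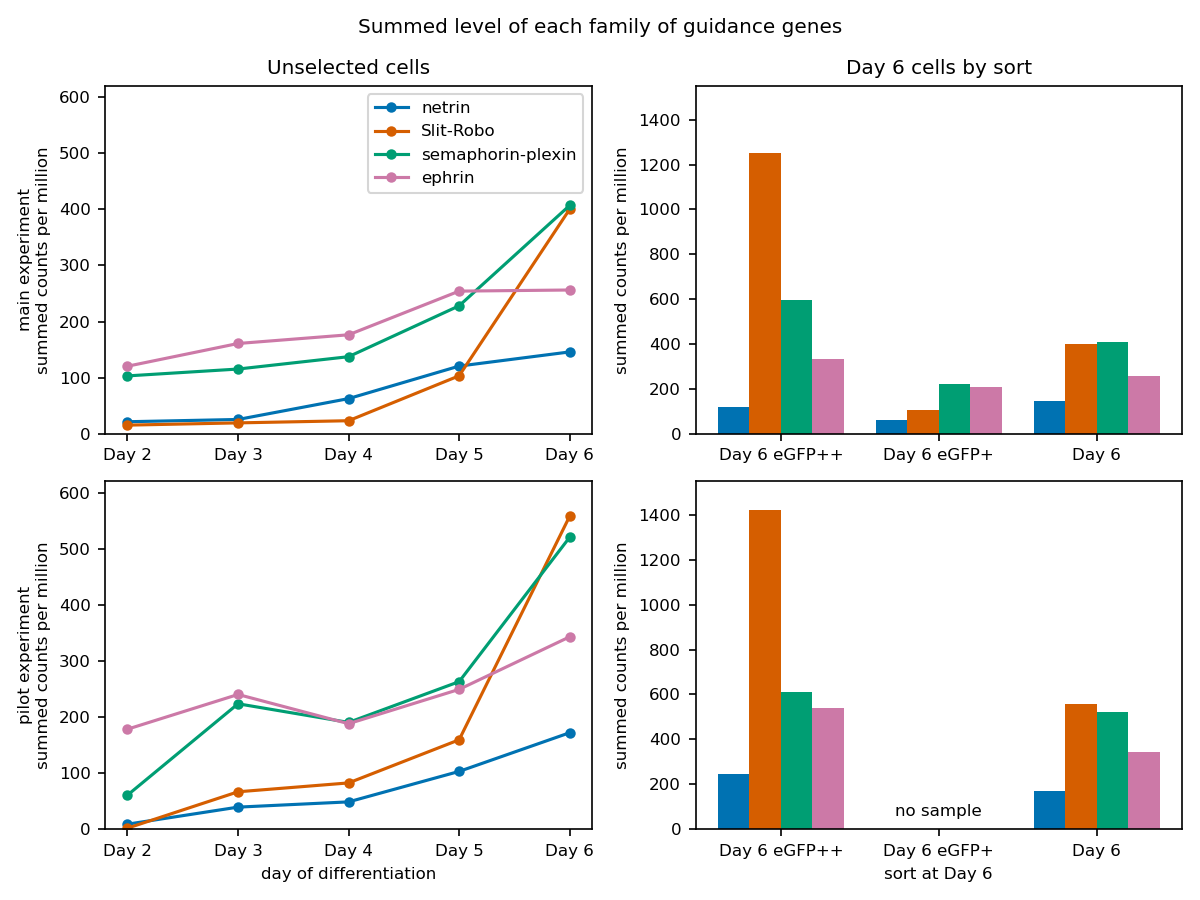
Summed CPM (linear axes) of the netrin, Slit-Robo, semaphorin-plexin and ephrin genes on Days 2 to 6 (lines, left) and in eGFP++, eGFP+ and unselected cells of Day 6 (bars, right), with the main experiment above and the pilot experiment below; each point or bar is 1 sum of cells. The Slit-Robo family reaches 1252 and 1423 CPM in eGFP++ cells, against 400.3 and 558 CPM in unselected Day 6 cells.

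Gene by gene, Day 6 was the highest of Days 2 to 6 for 29 genes (main) and 26 genes (pilot), of which 20 were shared. Day 2 was the highest for 7 and 4 genes, with none shared. Of the 51 genes with at least 3 reads on Day 6 or Day 2 of each experiment, 32 were higher on Day 6 in both experiments, 6 were lower in both and 13 went opposite ways. Shares over all genes were not computed for the highest day or for agreement of both experiments, so these counts have no background. Counted by experiment, 39 of 53 and 40 of 51 guidance genes had more CPM on Day 6 (main and pilot), with median log2 ratios of 2.40 and 4.24 (Day 6 over Day 2, sums under 3 reads set to 3). Over all genes 51.9% and 57.5% were higher, with medians of 0.07 and 0.41. Sema3g had no read in any of the 13 sums. Efna3 was at 0.366 CPM or less in every sum, and these genes did not pass the filter on low counts, which left 53.

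**Figure D2:**
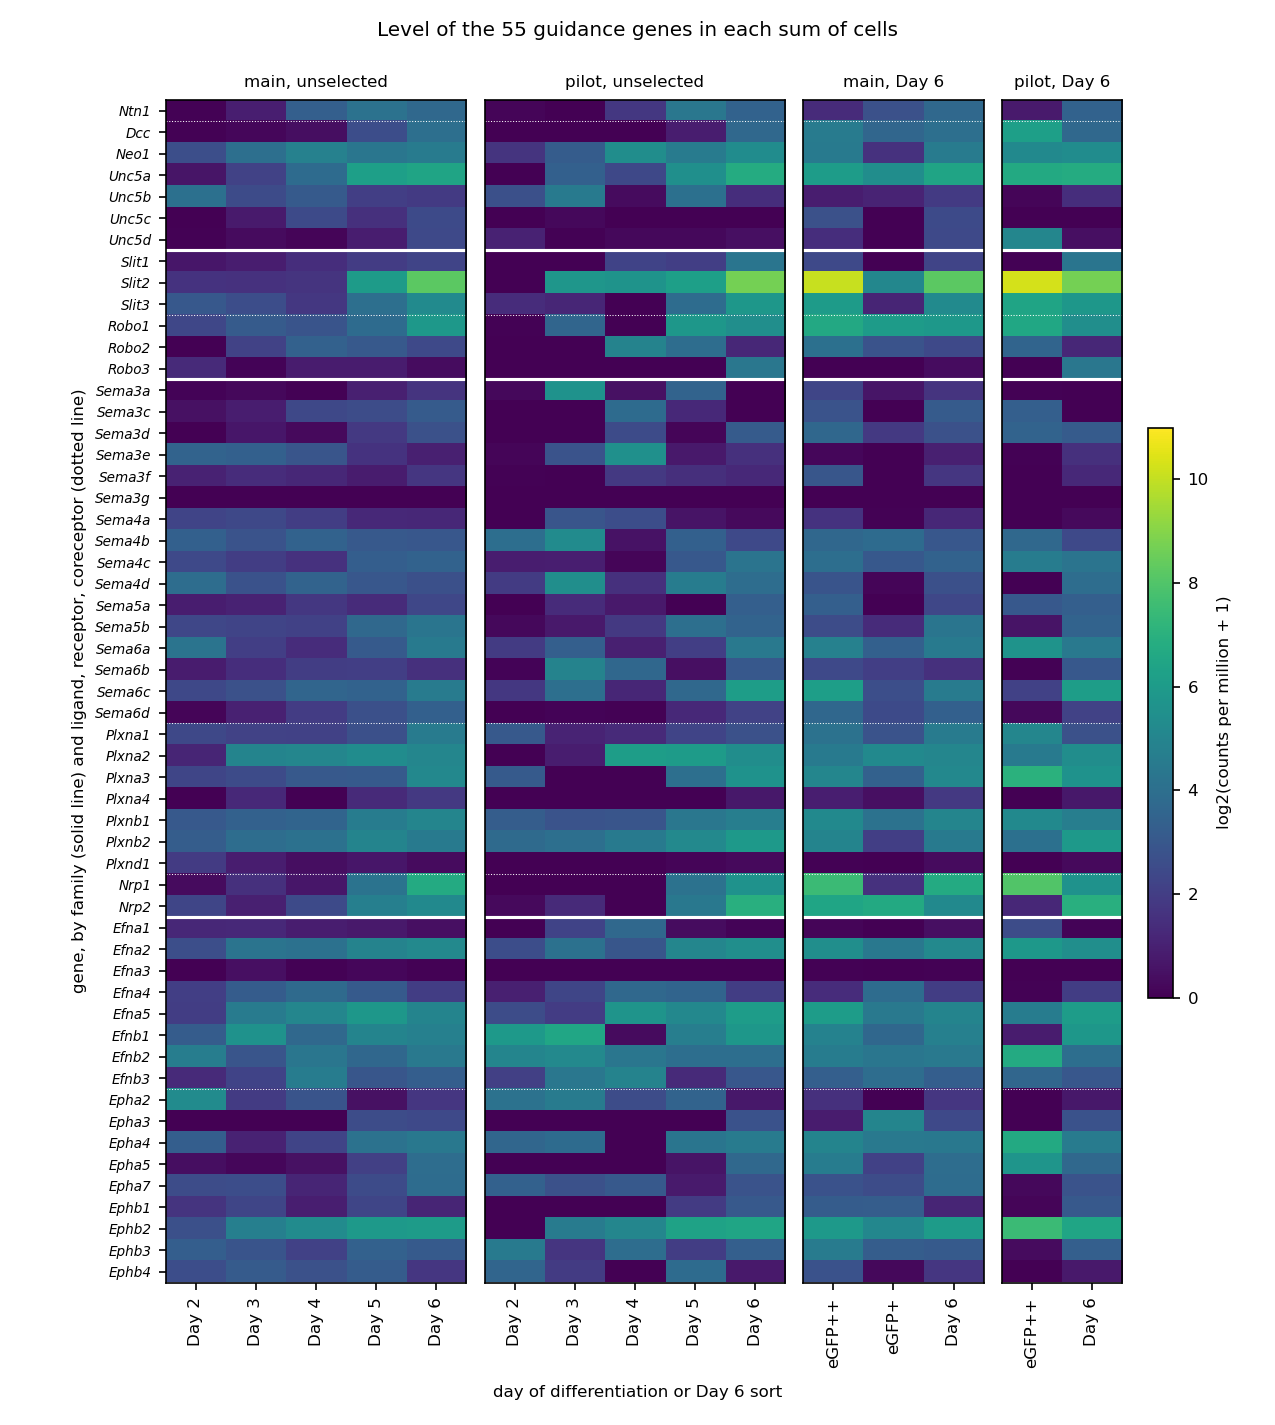
Level of each of the 55 genes as log2(CPM + 1) (colour) in every sum; columns are Days 2 to 6 of each experiment, then eGFP++, eGFP+ and unselected cells of Day 6, and rows run by family and by ligand, receptor and coreceptor. Slit2 in the eGFP++ columns (1068 and 1235 CPM) is the brightest row, and Sema3g is dark throughout.

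The change per day over Days 2 to 6 was tested in edgeR (quasi-likelihood, experiment as a term, 10 sums, Benjamini-Hochberg adjustment over 15971 genes). Of 53 guidance genes 5 were called higher and 0 lower, where 1.97% of all genes were called higher and 2.21% lower. The 5 were Dcc, Unc5a, Slit2, Nrp1 and Epha3; at an unadjusted p under 0.05 there were 23 of 53, with 19.5% of all genes there. DESeq2 called 21, of which 20 were higher and 1, Epha2, was lower, with 16.3% of all genes called. Fitted changes were positive for 40 of 53 and their median was 0.65 (log2 per day), against 0.02 over all genes tested. With 2 experiments and a common dispersion of 1.27 the spread is wide, and leaving out either Day 6 sum left no guidance gene called. For Day 6 against Day 2, Unc5a alone passed (1 of 53 higher and 0 lower, with 0.585% of all 16080 genes called higher and 0.249% lower). At an unadjusted p under 0.05 there were 21, with 13.7% of all genes, and DESeq2 called 21, with 12.7% of all genes.

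Because a single cell can hold most reads of a gene, the same fit was also run on the number of kept cells with at least 1 read of a gene in place of reads. These numbers were scaled to their total over all genes of a sum (with TMM), as reads were. A rise or fall on this measure is therefore relative and need not be a change in the share of cells. Where the number of cells with a read is said below to rise or fall, this scaled number is meant. Kept cells had a median of 4439 and 1810 genes on Day 2 and 2310.5 and 3361 on Day 6 (main and pilot). On that measure 23 of 40 guidance genes were called higher over Days 2 to 6 and 3 lower. Of all 11298 genes tested 13.4% were called higher and 13.1% lower. For Day 6 against Day 2 it called 24 of 43 guidance genes higher and 3 lower, where 14.9% of 11509 genes were called higher and 15.8% lower. Over the days this measure called all 4 tested Slit-Robo genes and 4 of 5 netrin genes higher. It also called 10 of 18 semaphorin-plexin genes and 5 of 13 ephrin genes higher. The 3 called lower in both fits were Epha2, Unc5b and Sema3e. Genes named from this measure alone were picked after their values were seen. A share of cells with a read depends on depth, and cells gave fewer genes per fixed 10000 reads on Day 6 than on Day 2 in the main experiment (median 1486 against 2177) and more in the pilot experiment (1685 against 988).

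**Figure D3:**
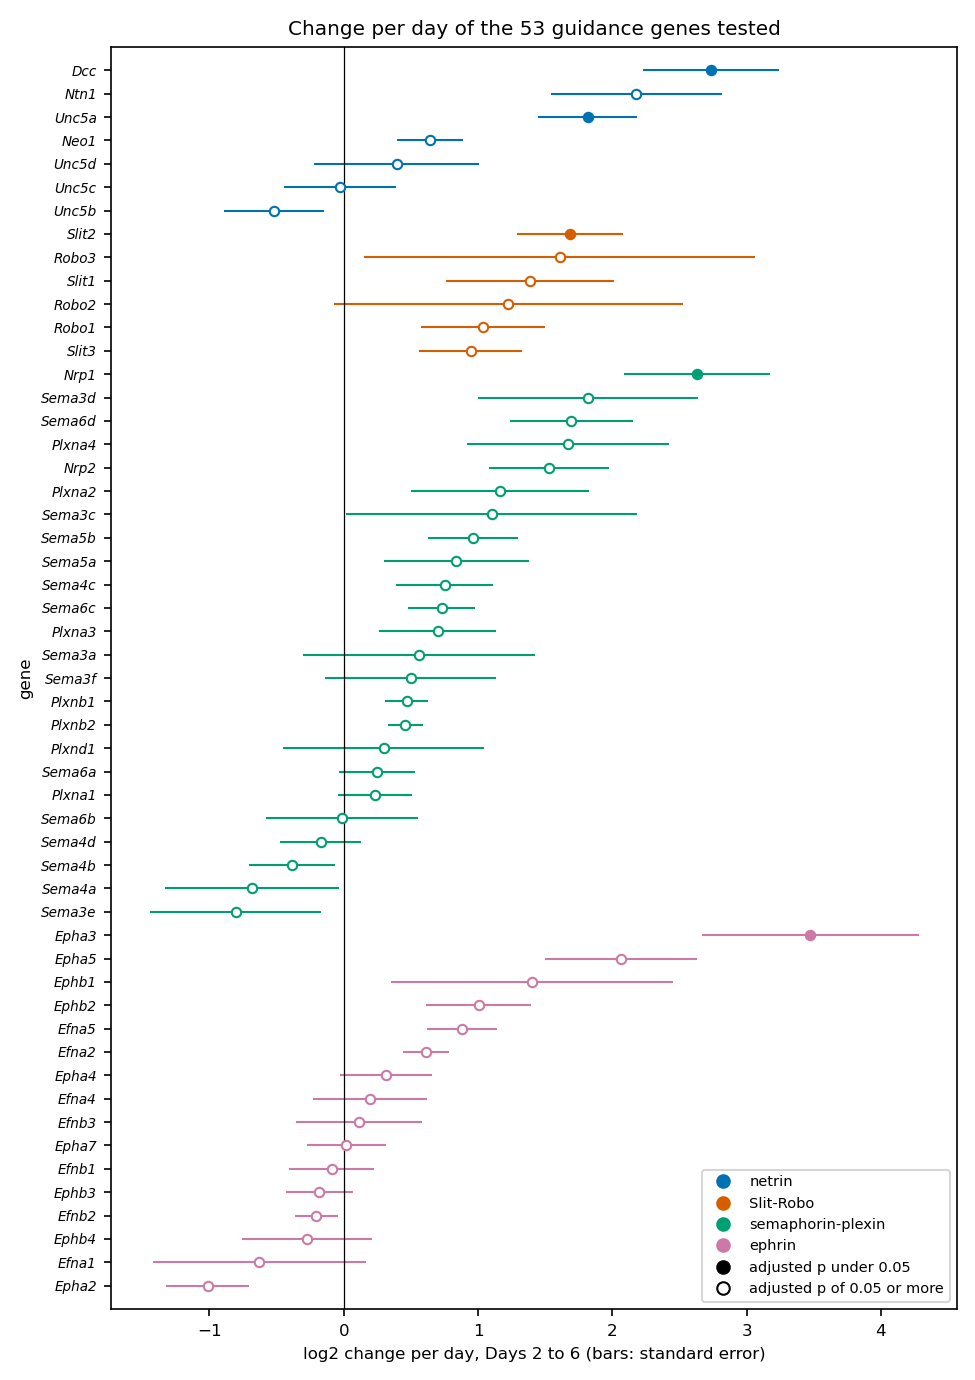
Fitted log2 change per day over Days 2 to 6 (x axis, bars are standard errors) of the 53 guidance genes tested, by family (colour); filled points have an adjusted p under 0.05. Dcc, Unc5a, Slit2, Nrp1 and Epha3 are the filled points, and Epha2 has the lowest value.

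In the netrin family the ligand and the receptors kept different time courses. Ntn1, the secreted ligand, had 0.0404, 0.921, 9.14, 16.7 and 12.1 CPM on Days 2 to 6 of the main experiment. Pilot Ntn1 sums on those days were 0.0952, 0, 2.41, 19.6 and 10.1 CPM. Its highest day was Day 5 in each experiment; the fitted change was 2.18 ± 0.64 per day (adjusted p = 0.0768, edgeR), and the number of cells with a read rose by 1.04 ± 0.21 per day (log2, adjusted p = 7.18e-04, edgeR). Unc5a, a receptor for repulsion (chr13:54949411-55006018, plus strand, GRCm38), had 0.538, 3.47, 13.5, 74 and 84.3 CPM on Days 2 to 6 of the main experiment. Pilot Unc5a sums on those days were 0, 9.43, 4.25, 43.5 and 108 CPM. Days 5 and 6 lay above Days 2 to 4 in each experiment, with no read in the pilot Day 2 sum. Unc5a rose by 1.82 ± 0.37 per day (log2 ± SE, adjusted p = 0.0207, edgeR quasi-likelihood), and Day 6 stood 8.70 ± 1.65 above Day 2 (log2, adjusted p = 0.0402). The call for Day 6 against Day 2 was kept in 13 of 21 alternative fits (adjusted p up to 0.199). It was lost when, in each sum, every gene was counted without the cell that had the most reads of that gene. It was also lost when the 2 plates with many poor wells were left out, and in 6 of the fits that leave out 1 sum. Dcc, the receptor for attraction (chr18:71253634-72351069, minus strand), had 0.0404, 0.139, 0.314, 5.02 and 15.3 CPM on Days 2 to 6 of the main experiment. Pilot Dcc sums on those days were 0, 0, 0.0166, 0.845 and 12.1 CPM. It was at or near 0 up to Day 4 and highest on Day 6 in each experiment, and it rose by 2.74 ± 0.51 per day (adjusted p = 0.0148, edgeR). Leaving out the main or the pilot Day 6 sum gave Dcc an adjusted p of 0.0529 or 0.0762.

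Neo1, a receptor of netrins and of repulsive guidance molecules, had 5.15, 15.2, 27.6, 19 and 22.6 CPM on Days 2 to 6 of the main experiment. Pilot Neo1 sums on those days were 2.11, 8.18, 41.4, 23 and 39.9 CPM. Day 4 was its highest day in each experiment, and its change per day in reads was 0.65 ± 0.25 (adjusted p = 0.174, edgeR). Unc5b, another Unc5 receptor (chosen after its values were seen), had 15.6, 4.75, 7.54, 3.17 and 2.68 CPM on Days 2 to 6 of the main experiment. Pilot Unc5b sums on those days were 5.46, 21.3, 0.249, 15.8 and 1.73 CPM. Its level on Day 6 was below Day 2 in each experiment; in reads its change was -0.52 ± 0.37 per day (adjusted p = 0.502, edgeR), while the number of cells with a read fell by 0.66 ± 0.13 per day (adjusted p = 6.45e-04). Unc5c stayed at 5.59 CPM or less in every sum, and Unc5d at 4.35 CPM or less except for 32.5 CPM in pilot eGFP++ cells.

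Slit2, a secreted repellent (chr5:47983138-48307733, plus strand, GRCm38), held the most Slit-Robo reads on Days 5 and 6 of the main experiment and on Days 3 to 6 of the pilot experiment. It had 2.09, 1.95, 2.14, 63.7 and 297 CPM on Days 2 to 6 of the main experiment. Pilot Slit2 sums on those days were 0, 54.1, 49.4, 73.4 and 421 CPM. In the main experiment only Days 5 and 6 were above 2.14 CPM, while the pilot sums of Days 3 to 5 already lay between 49.4 and 73.4 CPM, with 69.9% of the pilot Day 3 reads from 1 cell. Slit2 rose by 1.68 ± 0.39 per day (log2 ± SE, adjusted p = 0.0357, edgeR). Read for read, Day 6 was 142-fold Day 2 in the main experiment and at least 7382-fold in the pilot experiment, where Day 2 had no read (floor of 3 reads per sum). This call was kept in 10 of 19 alternative fits (adjusted p up to 0.150). The number of cells with a Slit2 read rose by 1.34 ± 0.15 per day (adjusted p = 2.17e-06, edgeR). Slit3, of the same ligand group, had 7.1, 5.01, 2.45, 15.1 and 37.6 CPM on Days 2 to 6 of the main experiment. Pilot Slit3 sums on those days were 1.64, 1.27, 0, 13.7 and 54.9 CPM. Slit1 had 0.579, 0.832, 1.72, 2.91 and 3.73 CPM on Days 2 to 6 of the main experiment. Pilot Slit1 sums on those days were 0, 0, 3.68, 3.08 and 18.2 CPM. Both had their highest day on Day 6 in each experiment, with fitted changes of 0.95 ± 0.38 per day for Slit3 (adjusted p = 0.199, edgeR) and 1.39 ± 0.63 for Slit1 (adjusted p = 0.250).

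Robo1, a Slit receptor, had 4.12, 7.98, 6.29, 13.4 and 57.7 CPM on Days 2 to 6 of the main experiment. Pilot Robo1 sums on those days were 0.0381, 11.1, 0, 55 and 42.4 CPM. Days 5 and 6 were its highest days in each experiment; its change in reads was 1.04 ± 0.46 per day (adjusted p = 0.244, edgeR), and the number of cells with a read rose by 0.58 ± 0.13 per day (adjusted p = 0.00153). Robo2 had 0, 3.52, 9.83, 7.43 and 4.46 CPM on Days 2 to 6 of the main experiment. Pilot Robo2 sums on those days were 0, 0, 29.2, 14.1 and 1.35 CPM. Its highest day was Day 4 in each experiment. Robo3, known from commissural axons that cross the midline, had 1.48, 0.0792, 0.796, 0.793 and 0.296 CPM on Days 2 to 6 of the main experiment. Pilot Robo3 sums on those days were 0, 0, 0, 0 and 19.4 CPM. Its only sum above 1.48 CPM was pilot Day 6, where 99.9% of the reads came from 1 cell.

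Nrp1 was the semaphorin-plexin gene that passed the test over the days. Nrp1, the coreceptor for Sema3a and also a receptor for VEGF (chr8:128358604-128503363, plus strand, GRCm38), had 0.242, 1.92, 0.587, 17.3 and 105 CPM on Days 2 to 6 of the main experiment. Pilot Nrp1 sums on those days were 0, 0, 0, 16.7 and 48.3 CPM. It was at 1.92 CPM or less up to Day 4 and at 16.7 CPM or more in each sum of Days 5 and 6, and it rose by 2.63 ± 0.54 per day (log2 ± SE, adjusted p = 0.0219, edgeR). A single cell gave 52.4% of its main Day 6 reads and 37.4% of its pilot Day 6 reads. With the cell that had the most reads of a gene left out for that gene in each sum, the change of Nrp1 was 2.60 per day (adjusted p = 0.0238, edgeR). Nrp2, the coreceptor for Sema3f, had 3.93, 0.980, 4.57, 26.1 and 36.3 CPM on Days 2 to 6 of the main experiment. Pilot Nrp2 sums on those days were 0.209, 1.46, 0, 19.98 and 122 CPM. Days 5 and 6 again lay above Days 2 to 4, with a change in reads of 1.53 ± 0.45 per day (adjusted p = 0.0758, edgeR) and a rise in the number of cells with a read of 0.66 ± 0.14 per day (adjusted p = 0.00116).

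Among the 7 plexins none passed the edgeR test on reads over Days 2 to 6, where 4.18% of all genes were called. DESeq2 called Plxna2, Plxnb1 and Plxnb2 higher over these days (adjusted p of 0.0291, 0.00527 and 3.66e-04). It called 16.3% of all genes. Plxna2, a receptor for class 3 and class 6 semaphorins, had 1.18, 30.2, 32.1, 40.2 and 31.8 CPM on Days 2 to 6 of the main experiment. Pilot Plxna2 sums on those days were 0, 0.834, 69.4, 64.5 and 40.9 CPM. Day 2 was its lowest day in each experiment and the level was already 30.2 CPM on Day 3 of the main experiment. Plxna3, which works with Nrp2 in Sema3f signalling, had 3.89, 4.71, 7.35, 7.75 and 33.7 CPM on Days 2 to 6 of the main experiment. Pilot Plxna3 sums on those days were 7.78, 0, 0, 15.3 and 47.5 CPM. Its highest day was Day 6 in each experiment. Plxnb2, a receptor for class 4 semaphorins, had 8.41, 14.5, 16.4, 30.4 and 22.2 CPM on Days 2 to 6 of the main experiment. Pilot Plxnb2 sums on those days were 13, 15.1, 21.4, 35.7 and 60.9 CPM. The fitted changes per day were 1.16 ± 0.66 for Plxna2, 0.70 ± 0.44 for Plxna3 and 0.46 ± 0.13 for Plxnb2, with adjusted p of 0.372, 0.428 and 0.0754 (edgeR). On the scaled number of cells with a read Plxna2, Plxna3 and Plxnb2 rose, as did Plxna1 and Plxnb1, by 0.26 ± 0.07 to 0.72 ± 0.15 per day. Plxnd1 was at 2.73 CPM or less in every sum and Plxna4 at 2.59 CPM or less.

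The 16 semaphorins kept low levels, and their sum was 71.1, 47.8, 61.9, 75.5 and 121 CPM on Days 2 to 6 (main) and 23.9, 199, 91.3, 87 and 169 CPM (pilot). Sema6c, a membrane-bound class 6 semaphorin, had 4.18, 5.58, 11.1, 10.1 and 22.8 CPM on Days 2 to 6 of the main experiment. Pilot Sema6c sums on those days were 2.45, 15.3, 1.28, 12.1 and 69.6 CPM. Its highest day was Day 6 in each experiment, and its change was 0.73 ± 0.25 per day (adjusted p = 0.129, edgeR). Sema6a, a class 6 ligand of A-type plexins, had 17.6, 3.17, 1.66, 7.57 and 22 CPM on Days 2 to 6 of the main experiment. Pilot Sema6a sums on those days were 2.72, 8.94, 0.929, 3.08 and 21 CPM. The main experiment was high on Day 2 and on Day 6 and low between, which the pilot experiment did not share for Day 2. Sema4d, a ligand of Plxnb1, had 14.2, 5.74, 10.2, 6.84 and 5.36 CPM on Days 2 to 6 of the main experiment. Pilot Sema4d sums on those days were 2.74, 42.9, 1.84, 23.3 and 14.5 CPM. Its sums of Day 6 and Day 2 were in opposite order in the 2 experiments. Sema3e, a secreted ligand of Plxnd1 (chosen after its values were seen), had 10.5, 9.44, 6.52, 2.07 and 0.958 CPM on Days 2 to 6 of the main experiment. Pilot Sema3e sums on those days were 0.0952, 6.06, 45.3, 0.696 and 1.9 CPM. The number of cells with a Sema3e read fell by 0.48 ± 0.15 per day (adjusted p = 0.0200, edgeR), while in reads Day 6 was below Day 2 in the main and above it in the pilot experiment. Sema4c, Sema5b and Sema6d, membrane-bound semaphorins (chosen after their values were seen), were highest on Day 6 among the unselected days of the main experiment, with 9.94, 18.3 and 9.37 CPM. In the pilot experiment Sema4c and Sema6d were highest on Day 6 and Sema5b on Day 5. On the number of cells with a read Sema4c rose by 0.37 ± 0.12 and Sema5b by 0.37 ± 0.12 per day (log2, adjusted p of 0.0226 and 0.0231, edgeR). The change of Sema6d per day did not pass there (0.53 ± 0.20, adjusted p = 0.0578, edgeR). For Day 6 against Day 2 on this measure Sema6d passed (3.05 ± 0.95, log2, adjusted p = 0.0103, edgeR). Sema4c and Sema5b did not pass in that comparison (adjusted p of 0.0818 and 0.0587, edgeR). The remaining class 3 semaphorins, Sema3a, Sema3c, Sema3d and Sema3f, were at 13.6 CPM or less in every sum except pilot Day 3, where Sema3a had 48 CPM.

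Epha3, a receptor for A-type ephrins (chr16:63543534-63864175, minus strand, GRCm38), had 0, 0.0297, 0, 4.96 and 4.32 CPM on Days 2 to 6 of the main experiment. Pilot Epha3 sums on those days were 0, 0, 0, 0 and 5.81 CPM. It was at 0.0297 CPM or less up to Day 4 and then at 4.32 to 5.81 CPM in 3 of the 4 later sums, and it rose by 3.47 ± 0.81 per day (log2 ± SE, adjusted p = 0.0344, edgeR). Few cells stand behind this call: 8 of 354 main and 2 of 71 pilot Day 6 cells had a read, and the gene was too rare for the fit on cells. The call was kept in 8 of 17 alternative fits (adjusted p up to 0.304), the highest p without the pilot Day 6 sum. Epha5, another receptor for A-type ephrins (chosen after its values were seen), had 0.336, 0.158, 0.419, 3.3 and 14.2 CPM on Days 2 to 6 of the main experiment. Pilot Epha5 sums on those days were 0, 0.0139, 0, 0.513 and 12.2 CPM. Day 6 was its highest day in each experiment of unselected cells. Its change in reads was 2.06 ± 0.57 per day (adjusted p = 0.0625, edgeR), and the number of cells with a read stood 6.10 ± 1.01 above Day 2 on Day 6 (adjusted p = 3.15e-06). Ephb2, a receptor for B-type ephrins, had 5.42, 26.1, 38.4, 61 and 64.7 CPM on Days 2 to 6 of the main experiment. Pilot Ephb2 sums on those days were 0, 22.8, 32.1, 80.6 and 88 CPM. Every later day was above Day 2, the change in reads was 1.01 ± 0.39 per day (adjusted p = 0.182, edgeR), and the number of cells with a read rose by 0.53 ± 0.09 per day (adjusted p = 1.65e-04). Epha4, which binds ephrins of both types, had 8.72, 1.07, 3.75, 16.9 and 20.1 CPM on Days 2 to 6 of the main experiment. Pilot Epha4 sums on those days were 11.3, 13.3, 0.0166, 18.7 and 23 CPM. Days 5 and 6 were its highest days in each experiment. Ephb3 had 8.73, 6.25, 3.39, 9.73 and 7.75 CPM on Days 2 to 6 of the main experiment. Pilot Ephb3 sums on those days were 21.9, 2.2, 14.2, 3.05 and 8.92 CPM. Its highest day was Day 5 in the main and Day 2 in the pilot experiment.

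Epha2, a receptor known from epithelia and from stem cells (chosen after its values were seen), ran the other way, with 38.8, 2.79, 6.35, 0.426 and 2.39 CPM on Days 2 to 6 of the main experiment. Pilot Epha2 sums on those days were 17, 22.5, 4.93, 10.4 and 0.654 CPM. The main Day 2 sum was the highest, and Day 6 was below Day 2 in each experiment. Its change in reads was -1.01 ± 0.31 per day (adjusted p = 0.0875, edgeR), and the number of cells with a read fell by 0.95 ± 0.18 per day (adjusted p = 4.99e-04). DESeq2 called the fall of Epha2 in reads (-0.999 per day, log2, adjusted p = 0.00541). In cells thinned to 10000 gene reads it was seen in 1.13% (0.440 to 2.87%) of main Day 6 cells, against 18.3% (14.6 to 22.7%) of main Day 2 cells (95% Wilson intervals). The pilot shares were 0% of 71 cells on Day 6, which allows up to 4.23% (3 cells of 71), against 2.7% on Day 2. Among the ligands, Efna5, an A-type ephrin, had 3.01, 22.6, 31.8, 56 and 30.4 CPM on Days 2 to 6 of the main experiment. Pilot Efna5 sums on those days were 4.93, 2.89, 50.2, 33.8 and 66.9 CPM. Day 2 was its lowest day in the main experiment and Day 3 in the pilot experiment. Efnb1, a B-type ephrin, had 8.19, 47.4, 12.1, 29.8 and 27 CPM on Days 2 to 6 of the main experiment. Pilot Efnb1 sums on those days were 61.5, 89.9, 0.232, 25.4 and 55.6 CPM. Day 3 was its highest day in each experiment. Efnb2, also of the B type, had 24, 6.44, 19, 11.6 and 20.7 CPM on Days 2 to 6 of the main experiment. Pilot Efnb2 sums on those days were 31.5, 35, 18.9, 14.9 and 14.9 CPM. It was lower on Day 6 than on Day 2 in each experiment. None of the ephrins tested passed the edgeR test on reads over the days, where 4.18% of all genes were called, and Efna3 was not tested. DESeq2 called Efna2 and Efna5 higher over the days (adjusted p of 0.00126 and 0.00116), with 16.3% of all genes called. On the number of cells with a read, Efna2 rose by 0.47 ± 0.09, Efna5 by 0.59 ± 0.10 and Efnb3 by 0.53 ± 0.16 per day.

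Between neighbouring days no guidance gene passed the edgeR test on reads. For Day 3 against Day 2 the count was 0 of 53, where 0.0498% of all genes were called; 4 had an unadjusted p under 0.05 (3.65% of all genes), and DESeq2 called 2, Robo2 and Unc5a (1.07% of all genes). For Day 4 against Day 3 it was 0 where 0% of all genes were called, with 0 guidance genes at an unadjusted p under 0.05 (2.69% of all genes) and 0 by DESeq2 (1.01%). For Day 5 against Day 4 it was 0 where 0% were called, with 4 at an unadjusted p under 0.05 (3.7% of all genes) and 1, Nrp1, by DESeq2 (1.16%). For Day 6 against Day 5 it was 0 where 0% were called, with 1 at an unadjusted p under 0.05 (3.17% of all genes) and 0 by DESeq2 (0.802%). The fit on cells with a read called 5 guidance genes higher and 2 lower on Day 3 than on Day 2 (2.71% and 1.49% of all genes were called higher and lower). Efna2, Efnb1, Ephb2, Plxna2 and Unc5a were the 5, with Epha2 and Epha4 on the other side. It called 0 for Day 4 against Day 3 (0.4% of all genes), with 5 at an unadjusted p under 0.05 (5.76%). It called Unc5a, Epha4 and Slit3 higher on Day 5 than on Day 4 (2.45% of all genes). Unc5a was seen in 33.1% (28.2 to 38.4%) of thinned main cells and 17.3% (10.4 to 27.4%) of pilot cells on Day 5, against 3.98% (2.11 to 7.39%) and 1.75% (0.310 to 9.29%) on Day 4. Slit2 was the single gene called for Day 6 against Day 5 (2.22% of all genes), with 23.4% (19.3 to 28.1%) and 29.6% (20.2 to 41%) of cells on Day 6, against 8.9% (6.27 to 12.5%) and 5.33% (2.09 to 12.9%) on Day 5.

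**Figure D4:**
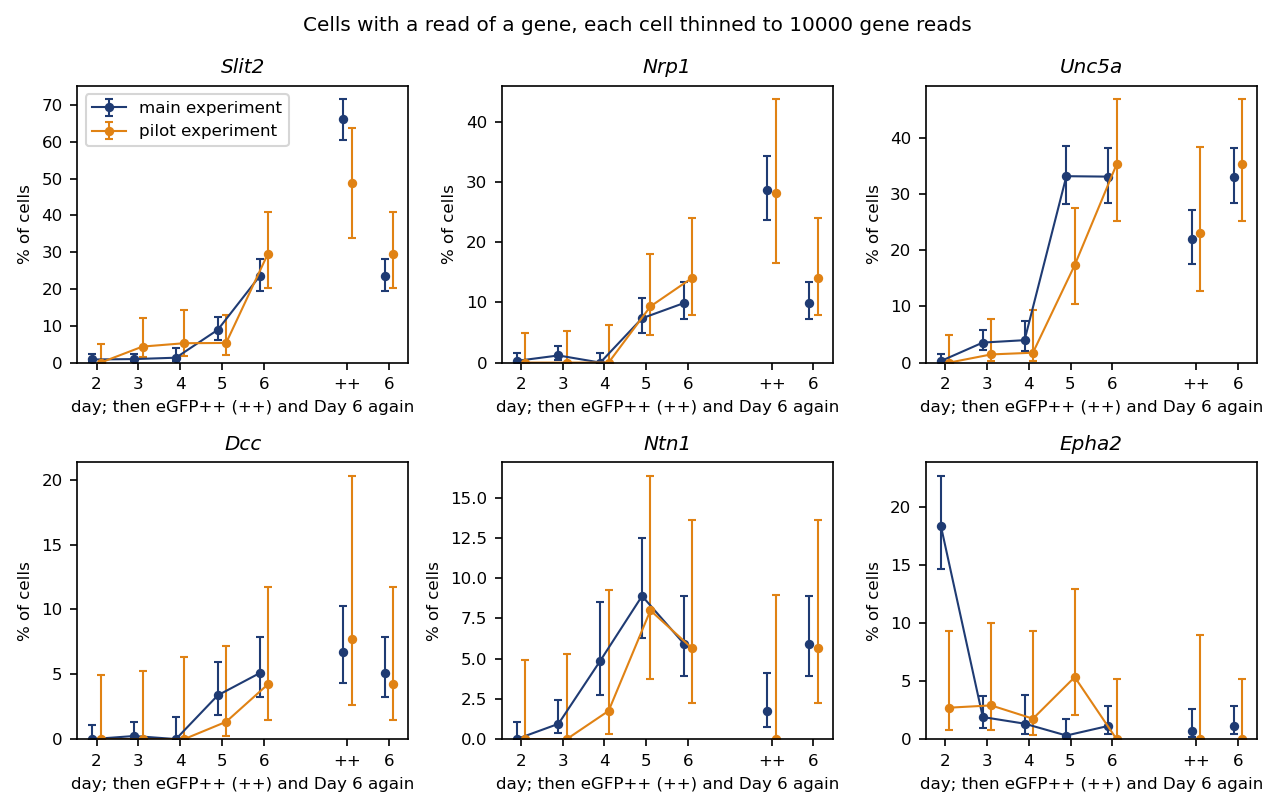
Percent of cells with a read of Slit2, Nrp1, Unc5a, Dcc, Ntn1 and Epha2 after each cell was thinned to 10000 gene reads, on Days 2 to 6 and then in eGFP++ cells (++) beside unselected Day 6 cells; points are shares of 1 sum, bars are 95% Wilson intervals, and colours are the main and pilot experiments. Slit2 and Nrp1 are seen in more eGFP++ than unselected Day 6 cells, and Ntn1 in fewer.

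Slit2 was the guidance gene with the most reads in sorted eGFP++ cells of each experiment. It had 1068 and 1235 CPM in eGFP++ cells (main and pilot) and 32.7 CPM in eGFP+ cells, against 297 and 421 CPM in unselected Day 6 cells. It was 3.6 and 2.93 times as high in eGFP++ as in unselected cells and took 46.4% and 43.8% of all guidance gene reads of eGFP++ cells (a share of reads, not of molecules). In edgeR the difference was 1.77 ± 1.60 (log2 ± SE, eGFP++ over Day 6, adjusted p = 0.763). No guidance gene passed this test, 0 of 53 where 0.0311% of all genes were called, 1 (Robo3) had an unadjusted p under 0.05 (6.29% of all genes), and DESeq2 called 0 (3.26%). On the number of cells with a read Slit2 alone of 43 guidance genes was called higher in eGFP++ cells (1.29 ± 0.29, adjusted p = 0.0102, edgeR). On this measure 0 were called lower, 26 had a positive and 17 a negative change, and 1.31% of all genes were called. Slit2 was seen in 66.3% (60.6 to 71.6%) and 48.7% (33.9 to 63.8%) of thinned eGFP++ cells (main and pilot), 3.61% (1.24 to 10.1%) of eGFP+ cells and 23.4% (19.3 to 28.1%) and 29.6% (20.2 to 41%) of unselected Day 6 cells.

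Across the 51 guidance genes with a ratio in each experiment, 16 were higher and 14 lower in eGFP++ than in unselected Day 6 cells in both experiments, and 21 went opposite ways. The median log2 ratio (eGFP++ over Day 6) was 0.24 (main) and -0.25 (pilot), beside -0.18 and -0.58 over all genes. Taken relative to those medians of all genes, 21 were higher and 11 lower in both. The share of all genes on the same side in both experiments was not computed, so these counts have no background. The netrin genes gave a median of -0.32 and -0.10, the 6 Slit-Robo genes 0.79 and 0.88, the semaphorin-plexin genes 0.38 and -0.35 and the ephrin genes 0.16 and -1.67. Pilot eGFP++ cells are 39 cells of 1 plate. The 6 neural progenitor markers (Sox1, Sox2, Pax6, Nes, Hes5, Fabp7) were all at 3 reads or more in each of these sums. These 6 summed to 129 and 118 CPM in eGFP++ cells, 957 CPM in eGFP+ cells and 777 and 709 CPM in unselected Day 6 cells. The 3 motor neuron progenitor markers summed to 37.1 and 100 CPM in eGFP++ cells, 115 CPM in eGFP+ cells and 96.2 and 59.2 CPM in unselected Day 6 cells. Their sum was thus lower in main and higher in pilot eGFP++ cells than in unselected cells. The part of either list in these differences was not tested.

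**Figure D5:**
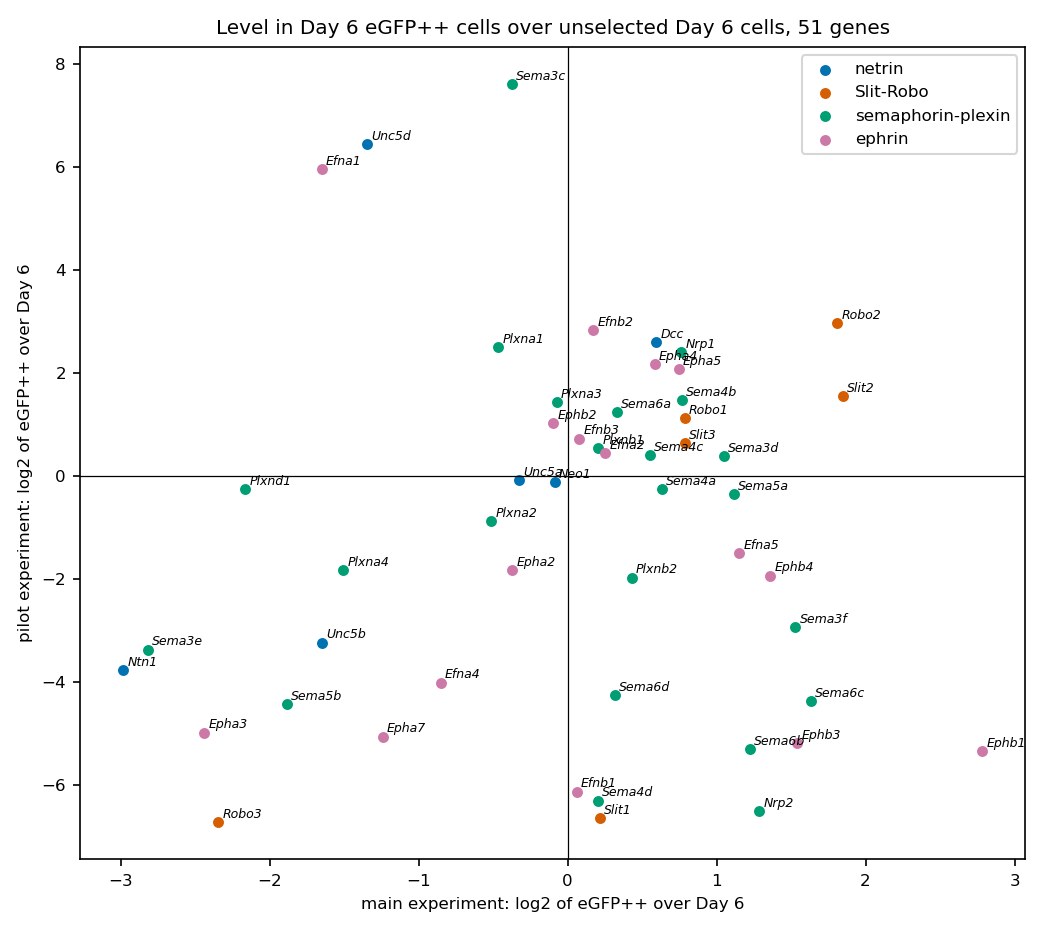
Log2 ratio of CPM in eGFP++ cells over unselected Day 6 cells for the 51 guidance genes with at least 3 reads in either sum of each experiment (main on x, pilot on y, sums under 3 reads set to 3; colours are families). Slit2 and Robo2 lie at the upper right, Ntn1, Epha3 and Robo3 at the lower left, and the points right of 0 and below 0, such as Nrp2 and Sema6c, went opposite ways.

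Slit3 and the Robo genes shared the direction of Slit2 except for Robo3 and, in the pilot experiment, Slit1. Slit3 had 64.8 and 85.3 CPM in eGFP++ cells (main and pilot) and 1.2 CPM in eGFP+ cells, against 37.6 and 54.9 CPM in unselected Day 6 cells. Robo1 had 99.3 and 92.5 CPM in eGFP++ cells (main and pilot) and 64.2 CPM in eGFP+ cells, against 57.7 and 42.4 CPM in unselected Day 6 cells. Robo2 had 15.6 and 10.6 CPM in eGFP++ cells (main and pilot) and 5.96 CPM in eGFP+ cells, against 4.46 and 1.35 CPM in unselected Day 6 cells. These 3 were higher in eGFP++ cells in each experiment. Robo3 was listed at 0 in both eGFP++ sums and in eGFP+ cells, against 0.296 and 19.4 CPM in unselected Day 6 cells. Slit1 was not of 1 direction, with 4.33 and 0.0611 CPM in eGFP++ cells (main and pilot) and 0 CPM in eGFP+ cells, against 3.73 and 18.2 CPM in unselected Day 6 cells. For Robo1, thinned shares were 18.1% and 12.8% of eGFP++ cells and 10.8% of eGFP+ cells, against 9.04% and 12.7% of unselected Day 6 cells.

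In the netrin family the ligand and its attractive receptor stood on opposite sides. Ntn1 had 1.53 and 0.733 CPM in eGFP++ cells (main and pilot) and 5.6 CPM in eGFP+ cells, against 12.1 and 10.1 CPM in unselected Day 6 cells. Dcc had 23 and 72.8 CPM in eGFP++ cells (main and pilot) and 11.4 CPM in eGFP+ cells, against 15.3 and 12.1 CPM in unselected Day 6 cells. A single cell gave 68% of the pilot eGFP++ reads of Dcc. Unc5a had 67.3 and 102 CPM in eGFP++ cells (main and pilot) and 40.6 CPM in eGFP+ cells, against 84.3 and 108 CPM in unselected Day 6 cells. Its fitted difference was -0.16 ± 1.16 (log2, adjusted p = 1.0, edgeR). Its direction depends on the scale: lower in eGFP++ cells in both experiments in CPM, but higher in the pilot experiment relative to the median of all genes. Unc5a was seen in 22% (17.5 to 27.2%) and 23.1% (12.6 to 38.3%) of thinned eGFP++ cells, against 33.1% (28.4 to 38.1%) and 35.2% (25.1 to 46.8%) of unselected Day 6 cells. Neo1 had 21.3 and 36.7 CPM in eGFP++ cells (main and pilot) and 1.99 CPM in eGFP+ cells, against 22.6 and 39.9 CPM in unselected Day 6 cells. The 7 ventral interneuron markers summed to 2.47 and 0.183 CPM in eGFP++ cells, with 5 and 4 of the 7 at 0, 81.9 CPM in eGFP+ cells, with 2 at 0, and 79.2 and 8.66 CPM in unselected Day 6 cells, with 2 and 0 at 0; their part in these values was not tested.

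Nrp1 and Nrp2 parted in the pilot experiment. Nrp1 had 178 and 257 CPM in eGFP++ cells (main and pilot) and 1.93 CPM in eGFP+ cells, against 105 and 48.3 CPM in unselected Day 6 cells. Nrp2 had 88.5 and 1.34 CPM in eGFP++ cells (main and pilot) and 102 CPM in eGFP+ cells, against 36.3 and 122 CPM in unselected Day 6 cells. Nrp1 was thus above unselected cells in each experiment, with a fitted difference of 2.06 ± 1.57 (log2, adjusted p = 0.743, edgeR), while Nrp2 was above in the main and below in the pilot experiment. Plxna2 had 22.3 and 22.2 CPM in eGFP++ cells (main and pilot) and 35.9 CPM in eGFP+ cells, against 31.8 and 40.9 CPM in unselected Day 6 cells. Plxna3 had 32 and 129 CPM in eGFP++ cells (main and pilot) and 9.57 CPM in eGFP+ cells, against 33.7 and 47.5 CPM in unselected Day 6 cells. Plxnb2 had 29.9 and 15.5 CPM in eGFP++ cells (main and pilot) and 3.07 CPM in eGFP+ cells, against 22.2 and 60.9 CPM in unselected Day 6 cells. In CPM only Plxna2 of these 3 plexins lay on 1 side, the lower, in each experiment. Relative to the median of all genes Plxna3 was higher in eGFP++ cells in both experiments. Sema6a had 27.6 and 49.7 CPM in eGFP++ cells (main and pilot) and 9.21 CPM in eGFP+ cells, against 22 and 21 CPM in unselected Day 6 cells. Sema6c had 71 and 3.36 CPM in eGFP++ cells (main and pilot) and 5.24 CPM in eGFP+ cells, against 22.8 and 69.6 CPM in unselected Day 6 cells. Sema4d had 6.18 and 0 CPM in eGFP++ cells (main and pilot) and 0.120 CPM in eGFP+ cells, against 5.36 and 14.5 CPM in unselected Day 6 cells. Sema6a was higher in eGFP++ cells in each experiment, and Sema6c and Sema4d were higher in the main and lower in the pilot experiment.

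Among Eph receptors and ephrins, Epha4 had 30.2 and 103 CPM in eGFP++ cells (main and pilot) and 20.6 CPM in eGFP+ cells, against 20.1 and 23 CPM in unselected Day 6 cells. Ephb2 had 60.5 and 179 CPM in eGFP++ cells (main and pilot) and 33.6 CPM in eGFP+ cells, against 64.7 and 88 CPM in unselected Day 6 cells. Ephb3 had 22.6 and 0.244 CPM in eGFP++ cells (main and pilot) and 8.43 CPM in eGFP+ cells, against 7.75 and 8.92 CPM in unselected Day 6 cells. Epha4 was higher in eGFP++ cells in each experiment, and the other two were not of 1 direction in CPM. Epha3 had 0.796 and 0 CPM in eGFP++ cells (main and pilot) and 31.4 CPM in eGFP+ cells, against 4.32 and 5.81 CPM in unselected Day 6 cells; all eGFP+ reads came from 1 cell. It was lower in eGFP++ cells in each experiment. Efnb2 had 23.3 and 106 CPM in eGFP++ cells (main and pilot) and 19.1 CPM in eGFP+ cells, against 20.7 and 14.9 CPM in unselected Day 6 cells. Efna5 had 67.6 and 23.6 CPM in eGFP++ cells (main and pilot) and 20.6 CPM in eGFP+ cells, against 30.4 and 66.9 CPM in unselected Day 6 cells. Efnb1 had 28.1 and 0.794 CPM in eGFP++ cells (main and pilot) and 11.9 CPM in eGFP+ cells, against 27 and 55.6 CPM in unselected Day 6 cells. Of the 3 ligands only Efnb2 was higher in eGFP++ cells in each experiment. The unselected Day 6 sums also enter Day 6 against Day 2, so these comparisons share samples.

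The eGFP+ cells, 83 cells of 1 plate, have no replicate and no test. All guidance genes together summed to 2302 CPM in eGFP++, 598 CPM in eGFP+ and 1209.5 CPM in unselected Day 6 cells of the main experiment. Compared with unselected Day 6 cells, 12 of 53 guidance genes were higher in eGFP+ cells and 41 lower, with a median log2 ratio of -1.19, beside 28.6% higher and a median of -0.70 over all genes. The netrin genes were all lower in eGFP+ cells (7 of 7), and Nrp2 and Robo1 were the guidance genes with the most reads there, with 17.1% and 10.7% of all guidance gene reads. The eGFP+ cells had the fewest detected genes of the main experiment (median 1524) and the largest part of reads in spike-in RNA (19%).

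In cells thinned to 10000 gene reads, the median number of the 55 genes with a read was 1, 1, 2, 3 and 3 on Days 2 to 6 (main) and 0, 1, 1, 2 and 4 (pilot). In eGFP++ cells it was 4 (main) and 3 (pilot), and in eGFP+ cells 1. A ligand and a receptor or coreceptor of the list were seen in the same cell in 76.6% and 74.4% of eGFP++ cells, 22.9% of eGFP+ cells, 54% and 67.6% of unselected Day 6 cells and 29.3% and 6.76% of Day 2 cells. Slit2 and its receptor Robo1 had a read in the same cell in 36 of 282 (12.8%) main and 1 of 39 (2.56%) pilot eGFP++ cells, against 17 of 354 (4.8%) main and 4 of 71 (5.63%) pilot unselected Day 6 cells. Slit2 had a read in 187 and Robo1 in 51 of these main eGFP++ cells, and in 83 and 32 of the main unselected cells. In the pilot experiment these numbers were 19 and 5 of the eGFP++ cells and 21 and 9 of the unselected cells. Dcc and Unc5a were seen together in 5 of 282 (1.77%) main and 0 of 39 (3 cells of 39 would be 7.69%) pilot eGFP++ cells, against 8 of 354 (2.26%) main and 2 of 71 (2.82%) pilot unselected Day 6 cells. A neuropilin and an A-type plexin, which form the receptor of class 3 semaphorins, were seen together in 42 of 282 (14.9%) main and 4 of 39 (10.3%) pilot eGFP++ cells, against 23 of 354 (6.5%) main and 10 of 71 (14.1%) pilot unselected Day 6 cells. An ephrin and an Eph receptor were seen together in 62 of 282 (22%) main and 5 of 39 (12.8%) pilot eGFP++ cells, against 49 of 354 (13.8%) main and 16 of 71 (22.5%) pilot unselected Day 6 cells. These are counts of cells with reads and carry no test. The number of cells with both of a pair depends on the number with each, and no expected number was computed. Cells of 1 sum share culture, plates and depth.

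Related genes outside the 55 were read from 3 further lists. Of 25 proteins that act below these receptors in the growth cone, 24 were tested over the days. Of these 2 were called higher and 0 lower, where 1.97% and 2.21% of all genes were called higher and lower. Their median change was 0.08 per day (log2). Srgap3, a protein that binds Robo receptors, had 338 and 375 CPM on Day 6, against 7.7 and 0 CPM on Day 2 (main and pilot), and rose by 1.77 ± 0.31 per day (adjusted p = 0.0109, edgeR). Fyn, a kinase below Dcc, plexins and Eph receptors, had 86.5 and 75.9 CPM on Day 6, against 18.8 and 14.8 CPM on Day 2 (main and pilot), and rose by 0.54 ± 0.14 per day (adjusted p = 0.0467, edgeR), a call kept in 7 of 19 alternative fits (adjusted p up to 0.154). Of 10 other genes of motor axon growth, 1 was called higher over the days and 1 in Day 6 against Day 2, and 0 were called lower. For Day 6 against Day 2, 0.585% of all genes were called higher and 0.249% lower. The median change of the 10 was 0.93 per day. Cntn2, an adhesion protein of axons, had 358 and 576 CPM on Day 6, against 3.05 and 0.0952 CPM on Day 2 (main and pilot), and rose by 2.36 ± 0.41 per day (adjusted p = 0.0112). Nrcam, an adhesion protein that pairs with neuropilins, had 48.7 and 67.1 CPM on Day 6, against 1.48 and 0.0952 CPM on Day 2 (main and pilot), and stood 6.35 ± 1.22 above Day 2 on Day 6 (adjusted p = 0.0419, edgeR), a call kept in 10 of 21 alternative fits (adjusted p up to 0.213). Of 21 other netrins, semaphorins, plexins, Eph receptors and related genes, 16 were tested over the days, and 0 passed in edgeR (3 at an unadjusted p under 0.05, and 4 by DESeq2). Over all genes 19.5% had an unadjusted p under 0.05 in edgeR and 16.3% were called by DESeq2. In eGFP++ against unselected Day 6 cells 0 genes of these 3 lists passed, with 0, 2 and 0 at an unadjusted p under 0.05 in the list of other family genes, of proteins below the receptors and of motor axon genes, and 0 by DESeq2. Over all genes 0.0311% passed in edgeR, 6.29% had an unadjusted p under 0.05 and 3.26% were called by DESeq2.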

How the data were processed

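The authors deposited tables of counts of reads per gene and cell, 1 table per plate, with no molecular identifiers. TopHat2 2.1.1, HTSeq 0.6.1 and mm10 are named per the submitters' processing notes; their roles, settings and the strand used in counting are not given in the sources used here, so reads of overlapping or antisense genes cannot be told apart. Of 24092 entries per table, 23968 genes were used; 92 spike-in sequences, 27 altered gene names and 5 summary lines (34.9% of reads) were left out, as were 40 columns of a table that match no sample. Cells with at least 500 genes were kept (2448 of 2744), no pair of them held identical counts, and reads were summed per group and experiment (13 sums of 16370502 to 100972780 gene reads). Column names tie cells to a plate and so to a group, not to a single labelled cell. Tests used edgeR 4.0.16 (filterByExpr, TMM, quasi-likelihood) in R 4.3.3 with limma 3.58.1 on 12 sums (10 for the change per day), with the experiment as a term and Benjamini-Hochberg adjustment over all genes at 0.05, two-sided; eGFP+ cells, with 1 sum, entered no test. Standard errors are the log2 change divided by the square root of F. The same tests were tried on simulated data with known changes. Sums under 3 reads were set to 3 in ratios. Shares of cells were taken after thinning each cell to 10000 gene reads, with 95% Wilson intervals; for a share of 0 the limit is 3 cells of the total. Alternatives were DESeq2 1.42.0, other scaling and filters, no experiment term, cells with a read in place of reads, thinned cells and each sum left out. The experiment is a block because its number is the experiment (main or pilot) that the labels name; deviations of the main and pilot sums from group means correlated at 0.0676 to 0.312 (15 pairs of groups). Named genes are those that passed any of the edgeR tests on reads and the 3 with the highest mean CPM of each family and role; others, among them genes that passed only on cells with a read, are marked where they are described. The members and lists were chosen with earlier results of these data known.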

Additional observations from a re-analysis of the deposited data

How the results depend on the processing

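With 2 experiments the count of guidance genes that passed depends on the test. For the change over Days 2 to 6 (5 genes) DESeq2 gave 21, cells with a read counted 26 and thinned cells 14. Leaving out, gene by gene, the cell with the most reads of that gene in each sum gave 8. Leaving out 1 sum gave 0 to 13 (0 without either Day 6 sum, 13 without the pilot Day 4 sum). For Day 6 against Day 2 (1 gene) DESeq2 gave 21, cells with a read 27 and thinned cells 8. Leaving out the cell with the most reads of each gene, or the 2 plates with many poor wells, gave 0, and leaving out 1 sum gave 0 to 3. For Day 3 against Day 2 (0 genes) DESeq2 gave 2, cells with a read 7 and single sums left out 0 to 1. For Day 5 against Day 4 (0 genes) DESeq2 gave 1, cells with a read 3 and thinned cells 1. Cells with a read gave 1 gene each for Day 6 against Day 5 and for eGFP++ against unselected Day 6 cells (0 genes on reads). The highest-cell and poor-plate settings were chosen after seeing the data. Without the replicate block (the experiment term), 3 genes passed over the days (Dcc, Nrp1, Unc5a) and 1 for Day 6 against Day 2. Over the alternatives that can change the fit, the 5 calls over the days were kept in 66 of 93 values and lost in 27, with 0 changes of sign. Among all genes the share called over the days was 4.18%, against 16.3% with DESeq2, 26.5% with cells with a read and 10.1% with thinned cells; for Day 6 against Day 2 it was 0.833%, against 12.7%, 30.8% and 5.96%. Each alternative fit was run over all genes, but calls kept or lost were counted only for genes that passed an edgeR test on reads. The cause of these differences was not tested. Amplified reads of few cells limit what a sum of low genes can show.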
